A study of Mus musculus with 6 samples.

Results

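Mouse macrophages grown from bone marrow (BMMs, bone marrow-derived macrophages) were described as lacking Bub1 in the myeloid lineage (Bub1 cKO) or as controls (Ctrl). Splicing factors were examined in both genotypes. They were defined as genes of the deposited table whose symbols begin with Srsf, Hnrnp, Sf3a, Sf3b, U2af, or Snrp followed by a letter from a to g or a digit, with pseudogene symbols ending in -ps left out. This rule found 55 of the 15982 genes: 11 SR proteins, 20 hnRNPs, 12 Sm and other snRNP proteins, 9 subunits of SF3A and SF3B, and 3 genes of the U2AF group. No symbol among them was repeated. Per the labels, both genotypes received 20 ng/ml of M-CSF for 3 days and then 20 ng/ml of M-CSF plus 50 ng/ml of RANKL for 2 days, which drives macrophage precursors toward osteoclasts. The labels list 3 libraries per genotype, each built on 25 ng of RNA by QuantSeq, which reads transcripts near the 3' end. They do not say whether these came from separate animals, so the p-values rest on a spread between libraries that could be technical. The Cre driver, the deleted exons, and the mice's age and strain are not stated in the sources used here.

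The spliceosome removes introns from pre-mRNA. Most of its small nuclear ribonucleoproteins (snRNPs) hold a small RNA wrapped in a ring of Sm proteins. U2AF marks the 3' end of the intron, and SF3A and SF3B, parts of the U2 snRNP, hold the branch point. SR proteins bind exons and mostly favour their inclusion, while hnRNPs coat the nascent transcript and often work against inclusion, so that the balance of these families sets which isoforms a cell makes. Most of these genes are expressed in every nucleated cell, and many SR protein and hnRNP genes limit their own mRNA through exons that send it to decay.

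The authors' deposited table holds 1 value per gene and genotype, read here as TPM (transcripts scaled to a fixed total per genotype), with a log2 change, a standard error, a test statistic and p-values for Bub1 cKO against Ctrl. Values per library were not used here, so each gene is given by its 2 group values, and the overlap of single libraries cannot be stated. The log2 change of the authors' deposited table compares the group values after adding 1 TPM. The statistic times its standard error gives a second estimate, the change that the authors' test itself fitted, here called the fitted change, and 95% intervals below belong to it. The depth of the libraries is unknown. The unit is unnamed in the file, and if reads were divided by transcript length, levels of different genes in a 3' tag library can be compared only roughly.

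The targeted gene, Bub1, a mitotic checkpoint kinase, was listed at 6.73 TPM in Ctrl against 5.32 TPM in Bub1 cKO by the authors' deposited table (adjusted p = 0.985). This value does not check the labels, because the deleted exons are not stated. Whether the counted 3' tags lie outside those exons is unknown, and the source of the remaining Bub1 reads was not tested. The fixed macrophage and osteoclast markers were all listed, 8 and 11 genes, with summed levels of 2605 and 1223 TPM for macrophage markers and 2002 and 2321 TPM for osteoclast markers in Ctrl and Bub1 cKO. Lyz2 made nearly all of the difference in the macrophage sum, at 2141 and 762 TPM. The other 7 markers summed to 464 and 461 TPM, a sum that hides moves in both directions. Cd68 (260.1 and 306 TPM) and Mertk (2.21 and 2.66 TPM) were higher in Bub1 cKO. Csf1r (115.7 and 96.7 TPM), Adgre1 (43.6 and 24.4 TPM) and Itgam (36.3 and 27.1 TPM) were lower. So were Mrc1 (4.97 and 2.42 TPM) and Fcgr1 (1.265 and 0.759 TPM). Of the 8 macrophage markers, 2 had a positive statistic and 5 passed an unadjusted p under 0.05 in the authors' deposited table. Only Lyz2 among them passed an adjusted p under 0.05. Of the 11 osteoclast markers, 9 had a positive statistic, 5 passed the unadjusted p and 0 the adjusted p. Over all genes of at least 1 TPM, 6.27% passed the unadjusted p, and 0.181% of all genes passed the adjusted p. Erythroid markers, 6 of 8 listed, summed to 19.9 and 358 TPM, and neutrophil markers, 11 of 12 listed, to 102 and 242 TPM. The statistic was positive in 5 of 6 and in 11 of 11. Of these, 4 erythroid and 3 neutrophil markers passed the unadjusted p, and 2 and 1 passed the adjusted p. Alas2 of the erythroid list and Camp, Elane, Lcn2 and Retnlg of the neutrophil list were listed at 0 in Ctrl, and Epb42 was listed at 0 in Bub1 cKO. B cell, T cell and stromal markers summed to between 0.44 and 7.06 TPM in either genotype, mast cell and basophil markers had 0 of 4 listed, and of 4 megakaryocyte markers Pf4 stood at 266 and 288 TPM, while the other 3 summed to 0.59 and 1.77 TPM. The part of these other cells in the values below was not tested. In bulk RNA, fewer cells of a type and less RNA per cell cannot be told apart.

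Transcripts of the splicing machinery stood at nearly the same level in both genotypes. No splicing factor passed an adjusted p under 0.05 of the authors' deposited table, where 0.181% of all 15982 genes did, and 1 passed an unadjusted p under 0.05, the SF3B subunit gene Sf3b3, which was higher in Bub1 cKO. The 54 splicing factors with a mean of at least 1 TPM all had a mean of at least 5 TPM. Among them 1.85% passed the unadjusted p, 1 higher and 0 lower. Over all genes of at least 1 TPM this share was 6.27%, with 3.06% higher and 3.21% lower, and over those of at least 5 TPM it was 7.39%. Their summed level was 6795 TPM in Ctrl against 7069 TPM in Bub1 cKO by the authors' deposited table, or 0.680% and 0.707% of the total. The median log2 change of the authors' deposited table was 0.03 for the splicing factors and -0.01 for all genes of at least 1 TPM. The fitted change was positive in 35 and negative in 19 of the 54, a share of 64.8% positive beside 50.2% of the other genes of at least 5 TPM. These counts are descriptions of a list and were not tested as such.

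**Figure D1:**
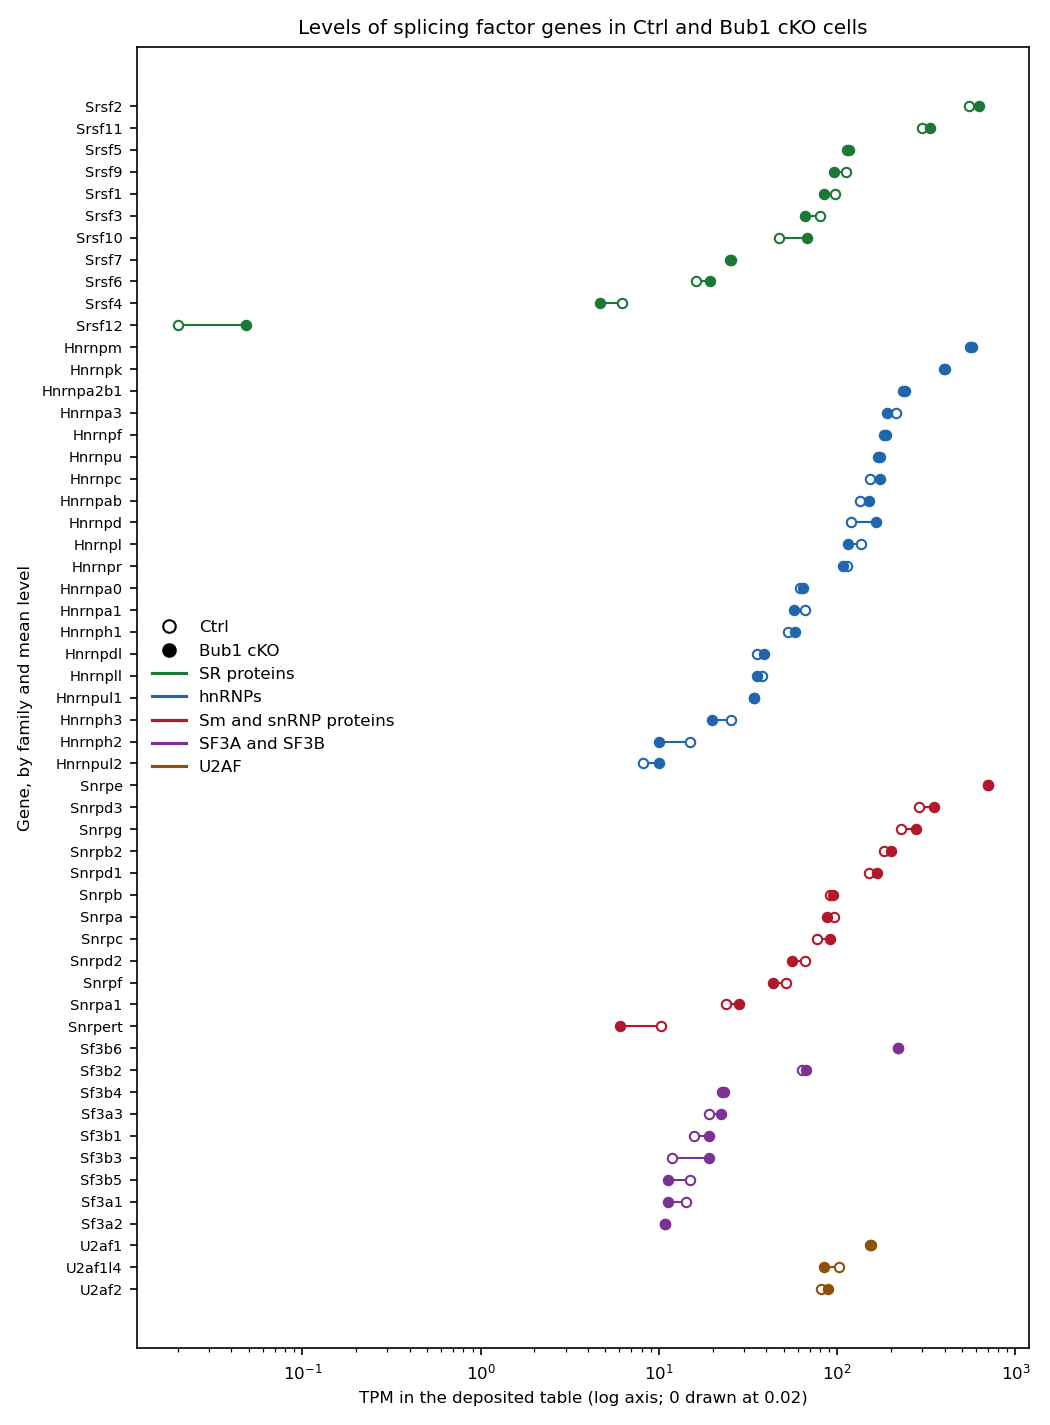
Level of each of the 55 splicing factor genes in TPM on a log axis, by family and mean level, with open circles for Ctrl, filled circles for Bub1 cKO and a line joining them. The circles nearly touch for most genes, the widest gaps among genes above 5 TPM are those of Snrpert, Sf3b3, Hnrnph2 and Srsf10, and Srsf12 lies near 0.

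The precision of the test allows most of these genes a statement on how large the fitted change could have been. This statement rests on the spread between libraries, which could be technical. The 95% interval of the fitted change lay inside a 2-fold change in either direction for 46 of the 54 genes (85.2%), beside 49.4% of the other genes of at least 5 TPM. It lay inside a 1.5-fold change for 27 of them (50.0%, beside 15.3%). Splicing factors are abundant, with a median mean level of 84.6 TPM beside 18.2 TPM for the other genes of at least 5 TPM, and abundant genes have smaller standard errors here (Spearman's rho between mean level and standard error of -0.67 across the 54 genes, a description across genes of the same 6 libraries). The 8 genes whose intervals reached beyond 2-fold were Srsf4, Hnrnph2, Hnrnph3, Snrpa1, Snrpert, Sf3a3, Sf3b3 and U2af1l4. None of the 54 had a log2 change beyond 2-fold in the authors' deposited table, where 9.4% of the other genes of at least 5 TPM did. Only Sf3b3 and Snrpert were past 1.5-fold there.

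**Figure D2:**
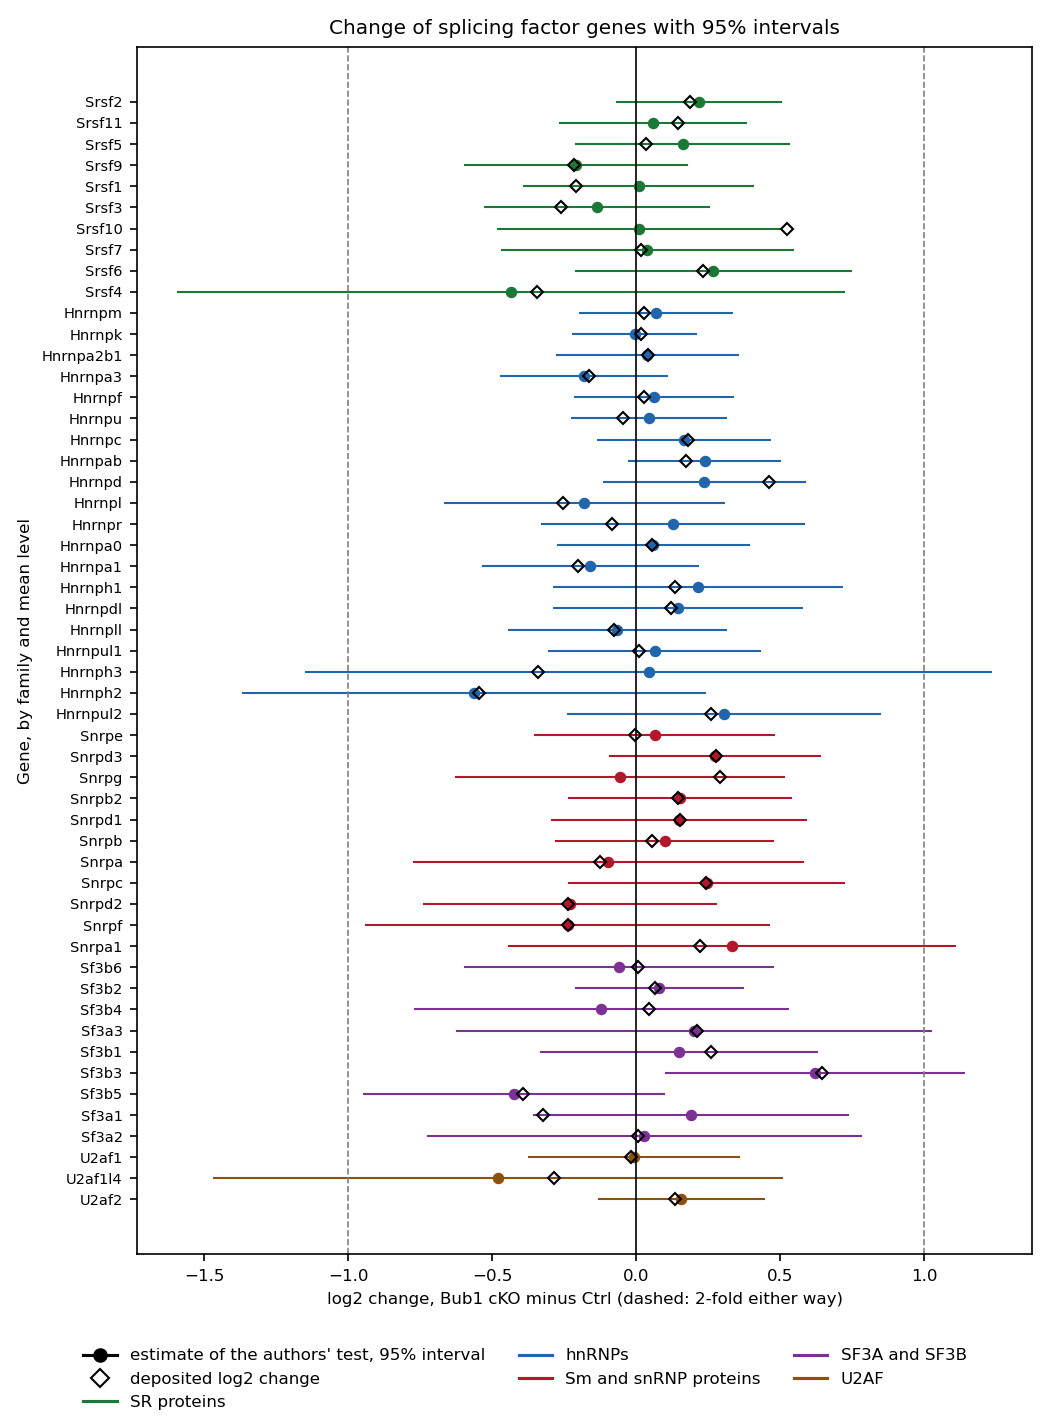
Fitted log2 change of 53 splicing factor genes (circles) with 95% intervals (lines) and the deposited log2 change (open diamonds), Bub1 cKO minus Ctrl, with dashed lines at 2-fold. Srsf12 and Snrpert, with standard errors of 4.08 and 3.64, are not drawn. Only the interval of Sf3b3, from 0.10 to 1.14, lies on one side of 0.

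Sm proteins are described first, because for some of them the table also lists a near-identical copy elsewhere in the genome. Transcripts of the 55 genes were aligned to those of all genes in the table (GENCODE M21, GRCm38). For 11 of them another gene of the table matched over at least 200 bases at 95% identity or more. For 3 of the 11 the copy was listed higher than the gene itself: Snrpf, Snrpg and Snrpert. Snrpert is itself the copy, a processed pseudogene of Snrpe that entered the list by its symbol, and it is the only one of the 55 not annotated as protein coding. The coding sequences of Snrpf and Snrpg are shown beside their copies, because they show how few coding bases differ within each pair. The library reads transcript ends, which were not compared base by base. Bases that differ between a gene and its copy are in capitals.
Snrpf: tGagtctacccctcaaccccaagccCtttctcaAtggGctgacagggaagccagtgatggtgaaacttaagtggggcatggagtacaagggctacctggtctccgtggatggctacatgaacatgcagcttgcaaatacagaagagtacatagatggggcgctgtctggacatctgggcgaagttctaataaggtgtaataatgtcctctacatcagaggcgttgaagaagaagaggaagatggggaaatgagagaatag
Gm13092: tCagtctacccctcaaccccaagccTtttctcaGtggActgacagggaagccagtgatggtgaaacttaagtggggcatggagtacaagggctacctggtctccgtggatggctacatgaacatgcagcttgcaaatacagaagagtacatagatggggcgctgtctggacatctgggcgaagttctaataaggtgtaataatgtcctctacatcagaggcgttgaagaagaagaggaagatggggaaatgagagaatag
Snrpg and Gm8186: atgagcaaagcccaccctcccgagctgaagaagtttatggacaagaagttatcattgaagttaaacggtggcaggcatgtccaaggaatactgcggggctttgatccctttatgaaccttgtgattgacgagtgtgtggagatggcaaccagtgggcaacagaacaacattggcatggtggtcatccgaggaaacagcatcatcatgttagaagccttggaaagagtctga

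Gm13092 (chromosome 4, 150315177 to 150315436, GRCm38) carries bases 2 to 261 of the Snrpf coding sequence with 4 substitutions near its start, G3C, C27T, A35G and G39A, and then 222 identical bases. Positions are counted from the first base of the Snrpf coding sequence, with the base of Snrpf first. Gm8186 (chromosome 17, 26098991 to 26099221) is identical to the Snrpg coding sequence over all 231 bases. Both copies are annotated as processed pseudogenes. How the authors assigned reads that fit more than 1 gene is not stated in the sources used here, so the levels of both partners in each pair are uncertain.

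In the authors' deposited table Snrpf, a subunit of the Sm ring, had 51.5 TPM in Ctrl against 43.6 TPM in Bub1 cKO, while Gm13092 had 1763 and 1858 TPM. The copy was thus listed at 38.1 times the level of the gene. Gene and copy together came to 1814 and 1902 TPM, a log2 change of 0.07, where Snrpf alone had -0.24. At these levels the sum follows the copy, whose own log2 change was 0.08, so it cannot check the value of Snrpf. Neither of the pair passed the test (unadjusted p = 0.507 and 0.797 in the authors' deposited table). Snrpg had 227 and 278 TPM and Gm8186 342 and 352 TPM by the authors' deposited table, together 570 and 630 TPM. Snrpe had 702 and 700.1 TPM by the authors' deposited table, the highest mean level of all 55 genes, and Snrpert 10.3 and 6.03 TPM. The sum of this pair, 712 and 706 TPM, was nearly the same in both genotypes. The test of Snrpert alone had a standard error of 3.64. All 279 bases of Snrpert lie within Rnf24 on the same strand, which was at 6.36 and 4.65 TPM. A part of Rnf24 reads in the value of Snrpert was not tested. Among the other copies, Gm10120 was listed at 36.4% of the level of Snrpd2, and those of Srsf3 together at 29.1% of its level. With these copies added, the log2 change went from -0.24 to -0.32 for Snrpd2 and from -0.26 to -0.10 for Srsf3.

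**Figure D3:**
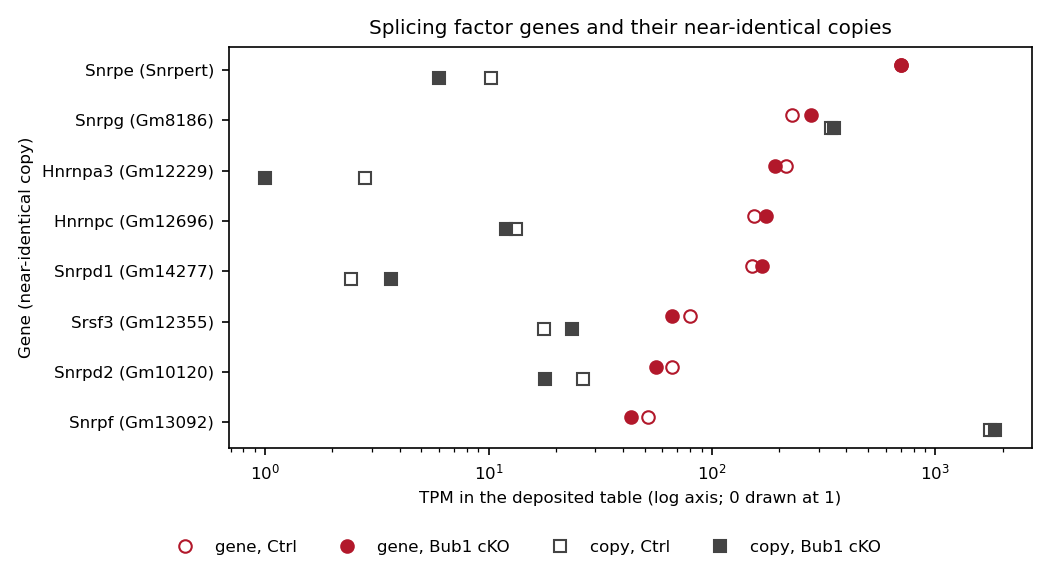
Level in TPM (log axis) of 8 splicing factor genes (circles) and of their near-identical copies with a mean of at least 1 TPM (squares, named in brackets), open for Ctrl and filled for Bub1 cKO; the copy of Hnrnpa3 is at 0 in Bub1 cKO. The copies of Snrpf and Snrpg lie above the genes, at 1763 and 1858 TPM and at 342 and 352 TPM, and the copies of the other 6 genes lie below them.

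For the 7 genes of the Sm ring the listed means of both genotypes spanned from 47.5 TPM for Snrpf to 701 TPM for Snrpe, an order that rests on the uncertain level of Snrpf, which with Gm13092 added would be the highest (1814 and 1902 TPM). Snrpd3, a core Sm gene with no such copy in the table, had the smallest p of the family, with 287 TPM in Ctrl against 348 TPM in Bub1 cKO by the authors' deposited table. There the log2 change was 0.28, the standard error 0.19, the unadjusted p 0.140 and the adjusted p 0.985. Snrpb and Snrpd1 were at 91.4 and 95.1 TPM and at 151 and 168 TPM by the authors' deposited table. Snrpd2 had the lower value in Bub1 cKO, at 66.3 and 56.1 TPM by the authors' deposited table (unadjusted p = 0.373). The 7 ring genes split into 4 with positive and 3 with negative log2 changes, and all 7 intervals lay inside a 2-fold change.

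The snRNP proteins outside the ring belong to the U1 and U2 particles. Snrpc, which helps U1 hold the 5' splice site, had 76.9 TPM in Ctrl against 91.3 TPM in Bub1 cKO by the authors' deposited table (log2 change 0.24, unadjusted p = 0.316). Snrpa, the U1 protein that binds a loop of U1 RNA, was at 96.0 and 87.9 TPM, and its U2 counterpart Snrpb2 at 182 and 201 TPM by the authors' deposited table. Snrpa1, the partner of Snrpb2 on U2 RNA, was at 23.9 and 28.1 TPM there, with an interval of the fitted change from -0.44 to 1.11 that reached past 2-fold. None of Snrpc, Snrpa, Snrpb2 and Snrpa1 passed an unadjusted p under 0.05. Over all 12 genes of the family the summed level was 1966 TPM in Ctrl against 2104 TPM in Bub1 cKO, with 7 positive and 5 negative statistics in the authors' deposited table.

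SF3A and SF3B held the one gene past an unadjusted p under 0.05. Sf3b3 (chromosome 8, 110810239 to 110846787 on the minus strand, GRCm38) encodes a large scaffold subunit of SF3B. It stood at 11.9 TPM in Ctrl against 19.2 TPM in Bub1 cKO by the authors' deposited table. This made a log2 change of 0.65 (standard error 0.26, unadjusted p = 0.019, adjusted p = 0.849 in the authors' deposited table). The fitted change was 0.62 with a 95% interval from 0.10 to 1.14. After adjustment over all genes this difference did not pass. Cog4 overlaps the gene by 188 bases on the opposite strand and was at 7.5 and 13.6 TPM by the authors' deposited table. Its difference did not pass an unadjusted p under 0.05 there. Whether reads were counted by strand is not stated in the sources used here, and a part of Cog4 reads in the value of Sf3b3 was not tested.

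The other SF3B subunits had values on both sides of no change. Sf3b5, a small subunit, was at 15.02 TPM in Ctrl against 11.2 TPM in Bub1 cKO by the authors' deposited table, where the log2 change was -0.39 (unadjusted p = 0.110). Sf3b1, the subunit that grips the branch point helix and is often mutated in myeloid neoplasms, was at 15.8 and 19.1 TPM (unadjusted p = 0.541 in the authors' deposited table). Sf3b2 was at 63.4 and 66.4 TPM, Sf3b4 at 22.4 and 23.2 TPM and Sf3b6, which touches the branch point adenosine, at 218 and 220 TPM by the authors' deposited table. Sf3b6 was thus the most abundant of the 9 genes by mean level, 219 TPM, followed by Sf3b2 with 64.9 TPM. In SF3A, Sf3a2 had 10.8 and 10.9 TPM and Sf3a3 had 19.0 and 22.1 TPM by the authors' deposited table. Sf3a2 overlaps Plekhj1 by 429 bases on the opposite strand, and Plekhj1 was at 41.7 and 39.1 TPM there. A part of Plekhj1 reads in the value of Sf3a2 was not tested. Sf3a1 had 14.2 and 11.2 TPM with a fitted change of the opposite sign, described below. Of the 9 genes, 6 had a positive and 3 a negative statistic in the authors' deposited table.

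The U2AF dimer recognises the polypyrimidine tract and the AG at the end of the intron. U2af2, its large subunit, was at 81.1 TPM in Ctrl against 89.2 TPM in Bub1 cKO, and U2af1, its small subunit, at 155 and 153 TPM by the authors' deposited table (unadjusted p = 0.282 and 0.975). The intervals of both lay inside 1.5-fold. U2af1l4, a relative of the small subunit, was at 103 and 84.1 TPM by the authors' deposited table (unadjusted p = 0.340), with an interval from -1.47 to 0.51. It has 34 annotated transcripts and overlaps Psenen by 327 bases on the opposite strand, which was at 126 and 107 TPM by the authors' deposited table.

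Among SR proteins, 10 of 11 had a mean of at least 1 TPM, 7 with a positive and 3 with a negative statistic, and none passed an unadjusted p under 0.05. Srsf2, an activator of exon inclusion and another gene mutated in myeloid neoplasms, was the most abundant, with 546 TPM in Ctrl against 622 TPM in Bub1 cKO by the authors' deposited table. It also had the smallest p of the family (its log2 change was 0.19 and its standard error 0.14, unadjusted p = 0.130, adjusted p = 0.985 in the authors' deposited table). Its gene (chromosome 11, 116849901 to 116853094) lies wholly within Mettl23 on the opposite strand, which was at 12.2 and 6.67 TPM by the authors' deposited table. Srsf11 followed with 301 and 333 TPM, and Srsf5 with 114 and 116 TPM by the authors' deposited table. Srsf2, Srsf11 and Srsf5 thus all had slightly higher values in Bub1 cKO, and none of them passed the unadjusted p.

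The remaining SR proteins were listed at lower levels, some higher and some lower in Bub1 cKO. Srsf6 had 16.2 and 19.2 TPM (unadjusted p = 0.269) and Srsf9, a close relative of Srsf1, had 112 and 96.1 TPM (unadjusted p = 0.290) in the authors' deposited table. Srsf1 was at 97.2 and 84.0 TPM, Srsf3 at 79.7 and 66.3 TPM and its relative Srsf7 at 25.1 and 25.4 TPM by the authors' deposited table. Srsf4 was at 6.23 and 4.69 TPM, with an interval from -1.59 to 0.72, too wide to say more. Srsf12 was listed at 0 TPM in Ctrl against 0.048 TPM in Bub1 cKO by the authors' deposited table, below what this comparison could resolve. The SR proteins together summed to 1343 TPM in Ctrl against 1435 TPM in Bub1 cKO.

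The 20 hnRNP genes had the lowest median standard error of the families, 0.18 beside 0.37 for the other genes of at least 5 TPM. U2AF genes (0.19) and SR proteins (0.20) came close. Hnrnpm led in level with 558 TPM in Ctrl against 568 TPM in Bub1 cKO, followed by Hnrnpk with 399 and 404 TPM and Hnrnpa2b1 with 234 and 241 TPM, all from the authors' deposited table. For Hnrnpk, which binds C-rich RNA, the 95% interval of the fitted change ran from -0.22 to 0.21. Hnrnpm represses and activates exons in a context-dependent way and shares 1169 bases on the same strand with March2, which was at 27.0 and 17.5 TPM by the authors' deposited table. For these abundant hnRNPs the difference between genotypes was smaller than the standard error of the test. In all, 14 hnRNP genes had a positive and 6 a negative statistic, none passed an unadjusted p under 0.05, and 14 of the 20 intervals lay inside 1.5-fold.

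The smallest p among hnRNPs belonged to Hnrnpab, an A/B-type RNA-binding protein, at 134 TPM in Ctrl against 152 TPM in Bub1 cKO by the authors' deposited table (log2 difference 0.17, unadjusted p = 0.076, adjusted p = 0.985). Its relatives Hnrnpd (AUF1, which also binds AU-rich elements that mark mRNA for decay) and Hnrnpdl were at 119 and 165 TPM and at 35.6 and 38.9 TPM by the authors' deposited table. Unadjusted p was 0.185 for Hnrnpd and 0.509 for Hnrnpdl there. The genes of the A type differed in sign: Hnrnpa1 was at 66.2 and 57.4 TPM, Hnrnpa3 at 213 and 191 TPM and Hnrnpa0 at 61.5 and 64.1 TPM by the authors' deposited table. In the H and F group, which binds G-rich RNA, Hnrnpf was at 184 and 187 TPM and Hnrnph1 at 52.8 and 58.1 TPM, while Hnrnph2 was at 15.03 and 9.97 TPM by the authors' deposited table (unadjusted p = 0.168). The interval of Hnrnph2 ran from -1.36 to 0.24, so a fall of more than 2-fold and no fall both lie inside it.

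The remaining hnRNPs lay between 8.14 and 174 TPM in either genotype. Hnrnpc, a nuclear packaging protein, was at 154 and 174 TPM and Hnrnpu, a nuclear scaffold protein, at 174 and 169 TPM by the authors' deposited table. Hnrnpu overlaps Cox20 by 1586 bases on the opposite strand, and Cox20 was at 265 and 264 TPM there. Some further splicing factors also overlap a gene on the opposite strand, not all named here. Hnrnpl was at 137 and 114 TPM and Hnrnpll, its relative known for regulating Ptprc splicing in lymphocytes, at 37.7 and 35.7 TPM by the authors' deposited table. Hnrnpr was at 114 and 108 TPM, Hnrnpul1 at 34.0 and 34.3 TPM, Hnrnph3 at 25.3 and 19.8 TPM and Hnrnpul2 at 8.14 and 9.95 TPM by the authors' deposited table. The unadjusted p of these 8 genes lay between 0.270 for Hnrnpul2 and 0.942 for Hnrnph3.

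For some splicing factors the group values and the test disagreed, so the choice between them matters for the gene. The deposited and fitted changes had opposite signs in 10 of the 54 genes (18.5%, beside 13.9% of the other genes of at least 5 TPM). They lay more than 1 standard error apart in 5 genes (9.3%, beside 14.5%): Srsf1, Srsf10, Hnrnpd, Snrpg and Sf3a1. Srsf10, an SR protein that represses splicing when dephosphorylated, had the widest gap: 47.0 TPM in Ctrl against 68.0 TPM in Bub1 cKO by the authors' deposited table. Its log2 change there was 0.52 and its fitted change 0.01, with an interval from -0.48 to 0.50, and the unadjusted p of the authors' test was 0.964. Sf3a1 had a log2 change of -0.32 in the authors' deposited table and a fitted change of 0.19, and Hnrnpd had 0.46 and 0.24. Snrpg had 0.29 and -0.06, and Srsf1 had -0.21 and 0.01. Srsf10 has 10 annotated transcripts from 394 to 3754 bases long. Whether the assignment of reads to transcripts of unequal length plays a part was not tested.

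**Figure D4:**
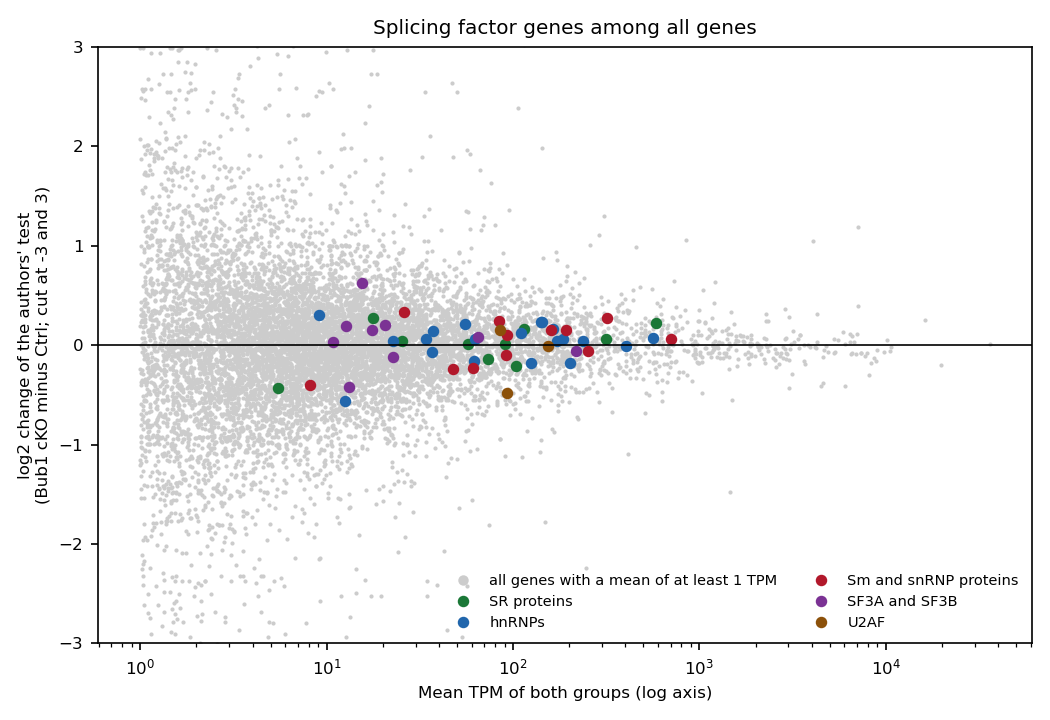
Fitted log2 change (Bub1 cKO minus Ctrl) against mean level in TPM (log axis) for all genes of at least 1 TPM (grey) and 54 splicing factor genes (coloured by family), cut at -3 and 3. The splicing factors lie in a band around 0, between -0.56 for Hnrnph2 and 0.62 for Sf3b3.

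The wider splicing machinery was read from 10 further lists of 185 genes, of which 183 were in the table and 181 had a mean of at least 1 TPM. None passed an adjusted p under 0.05 of the authors' deposited table, and 5 passed the unadjusted p, 3 higher and 2 lower, together 2.76% against 6.27% for the whole table above 1 TPM. The statistic was positive in 111 and negative in 70 of the 181 genes, and the median log2 change was 0.07 in the authors' deposited table. The first list holds kinases that phosphorylate SR proteins and so control where they act. Dyrk1a was at 13.7 TPM in Ctrl against 46.2 TPM in Bub1 cKO by the authors' deposited table (unadjusted p = 0.041, adjusted p = 0.985), but its log2 change of 1.68 there stands against a fitted change of 0.64 with an interval from 0.03 to 1.26. Srpk1 was at 51.4 and 39.4 TPM by the authors' deposited table, with a fitted change of the opposite sign (0.27). The list of SR protein kinases had 1 of 8 tested genes past the unadjusted p.

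Celf2 and Mbnl1 of the 37 further regulators of alternative splicing and Lsm12 of the LSm list also passed the unadjusted p. Celf2 was at 44.5 TPM in Ctrl against 33.3 TPM in Bub1 cKO (unadjusted p = 0.024), and Mbnl1, which like Celf2 steers developmental splicing, was at 49.6 and 40.6 TPM (unadjusted p = 0.038) in the authors' deposited table. Lsm12, an LSm-domain protein, was at 28.4 and 51.7 TPM by the authors' deposited table (unadjusted p = 0.037). Adjusted p of these 3 genes lay between 0.88 and 0.983 in the authors' deposited table. No gene passed the unadjusted p among 23 SR-related proteins, 21 U1 and tri-snRNP proteins, 30 proteins of the Prp19 complex and helicases, 9 of the exon junction complex, 13 branch point and U2-associated proteins, 9 of the minor spliceosome and 18 of snRNP assembly. The snRNP assembly gene Gemin4, chosen after its values were seen, had the widest gap of all 181 genes: 35.5 TPM in Ctrl against 2.17 TPM in Bub1 cKO by the authors' deposited table, with a positive statistic (0.88) and an unadjusted p of 0.381.

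**Figure D5:**
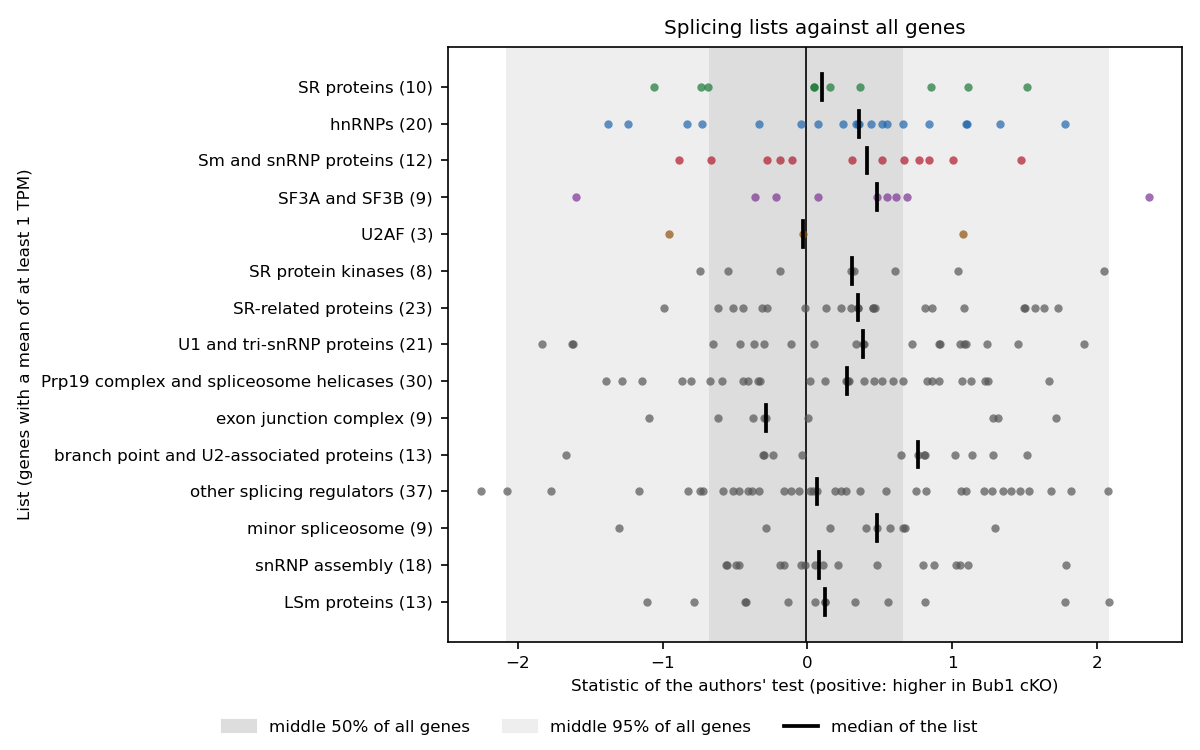
Statistic of the authors' test for each gene (points) of the 5 splicing factor families (coloured) and 10 further splicing lists (grey), with the median of each list as a black bar; shaded bands hold the middle 50% (from -0.68 to 0.66) and 95% (from -2.08 to 2.08) of all genes of at least 1 TPM. The bands describe single genes, not medians. Among the splicing factors Sf3b3, at 2.36, is the one point outside the outer band.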

How the data were processed

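RNA of 3 Ctrl and 3 Bub1 cKO libraries was sequenced by QuantSeq, per the labels' protocols. The deposited table names RaNA-seq, per the file header; the quantifier, build, annotation and test are not stated in the sources used here. Its expression values were read as TPM, since the authors' Ctrl and Bub1 cKO columns sum to 999891 and 999954; CPM would sum alike. In 15982 genes the deposited log2 change is that of the 2 group values, each plus 1, to within 0.002. The authors' standard error and statistic were read as scores of their test. In 15974 genes the deposited p-value is 2-sided and follows from the statistic under a normal distribution to within 0.0011.

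The fitted change is statistic times standard error, with a 95% interval of 1.96 standard errors. The calls are those of the authors' adjusted p under 0.05. Direction is that of the statistic. Lists use genes whose mean reaches 1 TPM and are described by counts and medians. Gene IDs were matched without version to GENCODE M21 (15902 of 15982, all 55 splicing factors, 47 of them with the same version). Copies were sought with BLAST 2.17.0 (megablast). Only the adjustment of p-values and the 95% intervals were tested on simulated data. The simulated statistics were drawn from a normal distribution, under which such intervals hold by construction.

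The members and lists were chosen with earlier results of these data known. Named by rule are genes past an unadjusted p under 0.05, the 3 highest and the 3 with the smallest p of each family, genes whose 2 changes differ by more than 1 standard error in opposite directions, genes under 1 TPM, and up to 2 genes of smallest p per further list; other genes were chosen after their values were seen. The planned comparison of protein sequences was not run. 1 further gene of the lists and 1 set of sequences are not reported here.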

Additional observations from a re-analysis of the deposited data

How the results depend on the processing

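No splicing factor passed the adjusted p in any setting: with p readjusted above 1 TPM or above 5 TPM, the smallest adjusted p was 0.625 and 0.508, and a threshold of 0.1 also gave 0. At an unadjusted p under 0.01 there were 0 splicing factors higher, against 1 at 0.05. Medians by family and counts of positive statistics moved by less than the median standard error or less than 1.5 times under the other settings (pseudocounts of 0.1 and 5, no filter, a filter of 5 TPM, all rows kept, centring, the fitted change or the sign of the log2 change). The fitted change reversed the sign of the log2 change in 10 genes: Srsf1 (0.009), Hnrnph3 (0.044), Hnrnpk (-0.005), Hnrnpr (0.127), Hnrnpu (0.046), Snrpe (0.065), Snrpg (-0.056), Sf3a1 (0.192), Sf3b4 (-0.12) and Sf3b6 (-0.059). The cause was not tested. No paired analysis was possible because the table gives 1 value per genotype, and for the same reason no library could be left out. The depth is unknown, so no limit from depth can be given for any gene. The standard errors of Srsf4 (0.59), Hnrnph3 (0.607), Snrpert (3.64) and Srsf12 (4.08) limit what can be said of them; their cause was not tested.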
